A study of Mus musculus with 4 samples.

Results

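The mitotic kinases, kinesins and spindle genes are 48 genes that were picked by name among 31709 names on the array. Counts over all genes below use these 31709 names, which include probes and transcripts that have no gene symbol. Every probe that is not a control and whose gene name in the files equals one of the 48 names was taken. This gave 59 probes, and 11 of the 48 genes had more than 1 probe. They were compared in mouse embryonic fibroblasts (MEFs), which are fibroblasts cultured from mouse embryos, of 2 genotypes. WT MEFs are p53+/+ and p53-/- MEFs lack the tumor suppressor p53. Each genotype was measured without an agent and with doxorubicin, a drug that breaks DNA, which made 4 conditions. Each condition had 1 Agilent 1-color array hybridized with labeled cRNA made from 200 ng of total RNA, and 1 slide carried the 4 arrays. With no replicate of any condition there is no test below and no p-value, and an effect of position within the slide cannot be told apart from the condition. The dose and the time of doxorubicin for the arrays, and how many embryos or cultures the RNA came from, are not given in the sources used here.

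Mitosis is driven by kinases such as polo-like and aurora kinases, and entry into it needs CDC25 phosphatases, which remove inhibitory phosphates from cyclin-dependent kinases. Kinesins are motors that slide, anchor or shorten microtubules, and a subset of them builds the spindle, moves chromosomes and organizes the midzone in which cytokinesis takes place. Most of these genes are transcribed in late S, G2 and M phase, through complexes that contain the MuvB core with B-MYB and FOXM1. When p53 is active, its target p21 inhibits cyclin-dependent kinases, and a repressive form of the complex, DREAM, can then occupy the same genes through a promoter element called CHR.

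The CHR element (TTTGAA or TTCGAA, searched on both strands, so that TTCAAA also counts) is shown first because many of these genes carry it near their start, and the rule that picked them by name did not use it. A RefSeq table of promoters (GRCm38.p6) with 250 bases before to 50 after each gene start held 40 of the 48 genes. Aurkb, Tpx2, Kif20a, Cdc25c, Pbk, Smc4, Incenp and Stmn1 were not among them. Of these 40 genes, 30 (75%) had a CHR match in a promoter, against 5854 of 27025 genes (21.7%) in the whole table. Within 40 bases of the gene start, 26 genes (65.0%) had a match, against 5.20% of all genes. The CCAAT box, which NF-Y binds and which overlaps neither form of CHR, was in 26 of 40 (65.0%) against 41.1% of all genes. Both elements were in 24 of 40, against 9.65% of all genes. A match is a description of letters in the window and not a site shown to be bound.

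The windows below hold 30 bases that lie wholly before the gene start, 5′ to 3′ on the strand of the gene, with the CHR match in capitals. They are the members with a match in that position within 40 bases of the start, plus Mki67, which had the lowest ratio among the 39 members measured on both WT arrays and carries a pair of matches farther upstream. In this order they lie at chr4:118437344-118437373 (minus strand), chr19:6085067-6085096 (plus), chr19:38054996-38055025 (plus), chr15:102296254-102296283 (plus), chr19:37376351-37376380 (plus), chr9:122951050-122951079 (plus), chr7:127042421-127042450 (minus), chr7:135716466-135716495 (minus), chr5:45669883-45669912 (plus), chr7:80294434-80294463 (plus) and chr2:164769888-164769917 (plus) of GRCm38.p6.
Cdc20: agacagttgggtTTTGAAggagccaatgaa
Cdca5: gcaaggcgggcaaTTTGAAcgTTTGAAgca
Cep55: acagccgcgggaTTCAAActcccggaagcg
Espl1: tcactagggataTTTGAAaggaggtgctgg
Kif11: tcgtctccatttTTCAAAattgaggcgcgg
Kif15: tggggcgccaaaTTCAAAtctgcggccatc
Kif22: ggggccccggtaaTTCAAAagagagaagcg
Mki67: TTTGAAccgccgttttggTTTGAAtcgggc
Ncapg: ccgcgatagttgTTTGAAaactctggcgct
Prc1: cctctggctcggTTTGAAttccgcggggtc
Ube2c: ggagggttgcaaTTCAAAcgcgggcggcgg
The first base of the match lay 18 bases before the start in Cdc20, 27 in Espl1, 17 in Kif22 and 29 in Ube2c, and 116 and 98 bases before it in Mki67. In others, among them Plk1, Aurka, Kif23, Racgap1 and Cdca8, the match began 2 to 32 bases after the start, and those windows are not printed. Melk, Plk4, Nek2, Nusap1, Tacc3, Ncaph, Kif18a, Cit, Cdc25a and Pttg1 were the 10 genes without a match.

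**Figure D1:**
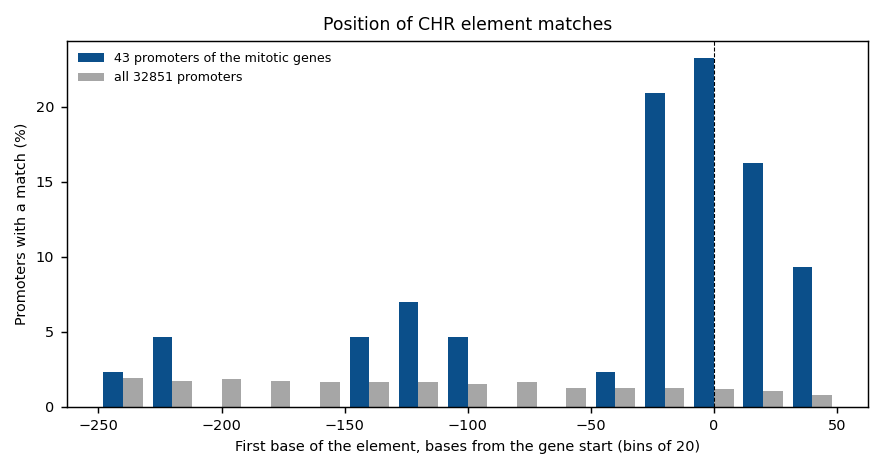
Share of promoters (%) with a CHR match that begins in each bin of 20 bases around the gene start, for the 43 promoters of the mitotic genes (blue) and for all 32851 promoters of the table (grey). The blue bars reach 20.9% and 23.3% in the bins next to the start, while the grey bars stay between 0.79% and 1.91% in every bin.

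The share with a CHR match was lower in each of the other cell cycle lists. CHR was found in 56.2% of other spindle and cytokinesis genes, 54.8% of kinetochore and spindle checkpoint genes, 5 of 10 condensin II and cohesin genes, 42.9% of mitotic entry genes with their MYB and FOXM1 drivers, and 31.6% of replication genes. It was found in 15.8% of transport kinesins, 16.7% of the other NEK, PLK and aurora kinases and 15.4% of anaphase promoting complex genes, and in 1 of 8 stathmins and tubulins, which are below the 21.7% of the whole table. The CCAAT box (65.0% of members) was more frequent in other spindle (81.2%), mitotic entry (78.6%), replication (73.7%) and kinetochore genes (67.7%). It was in 62.5% of stathmins and tubulins, and in 36.8% to 41.7% of each remaining list named here. Its share is therefore not particular to the members.

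Signals are given as relative levels, that is, the intensity divided by the 75th percentile of its array. A gene was represented by its probe with the highest mean level, and a ratio counted as measured if both arrays read that probe well above background. Depth has no meaning here, and the arrays' 75th percentiles were signals of 1819 to 2421. The SD of log2 ratios between arrays from repeat spots of the same probe was 0.115, which covers spot error on the array only. The brightest of 153 negative control spots on each array had relative levels of 0.0426 to 0.133, so levels near or below these are within reach of background. Trp53 itself had levels of 0.592 and 1.89 in WT MEFs without and with doxorubicin, and of 0.235 and 0.224 in p53-/- MEFs without and with it. This probe still read above background in p53-/- MEFs, and whether it lies inside the deleted part is not given in the sources used here. Cdkn1a, which encodes p21, had levels of 13.8, 58.3, 0.519 and 2.44 in the same order, so it was lowest in the MEFs labeled p53-/- but was higher with doxorubicin in both genotypes. Sets of 4 relative levels below follow this order (WT without and with doxorubicin, then p53-/- without and with doxorubicin).

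With doxorubicin, the mitotic genes were much lower in WT MEFs. Of the 39 members measured on both WT arrays, 35 were at least 2-fold lower and 2 were at least 2-fold higher, with a median log2 ratio of -2.77 (6.81-fold lower). Over all 17513 genes measured, 10.4% were at least 2-fold lower and 11% higher, with a median log2 ratio of 0.01. The 2 that were higher were Kifc1 and Kif18b, and Cdc25a and Pttg1 stayed within 2-fold. With a promoter in the table were 35 members that were at least 2-fold lower in WT or dim only in doxorubicin-treated WT. A CHR match was found in 27 of these 35 (77.1%), and in 3 of the 5 other members with a promoter. Whether a match goes with the fall in WT was not tested. Fewer cycling cells and less RNA per cell cannot be told apart in RNA from whole cultures.

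In p53-/- MEFs the same drug left most members within 2-fold of their untreated level. Of 46 measured, 5 were at least 2-fold higher and 0 lower, against 9.24% higher and 6.89% lower of all 16953 genes, so the share of members past 2-fold was near the background. The median log2 ratio was 0.47 (1.38-fold higher), and 42 of the 46 ratios were above 0, the exceptions being Kif4, Cdc25c, Cit and Kifc1. Among all 16953 genes, 8489 ratios were above 0, and the median was 0.0011. The small upward shift of the members depends on the scaling. With scaling to array medians, the median of all genes moved to -0.30 and that of the members to 0.17, 33 of 46 were above 0, and only Pttg1 stayed past 2-fold.

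**Figure D2:**
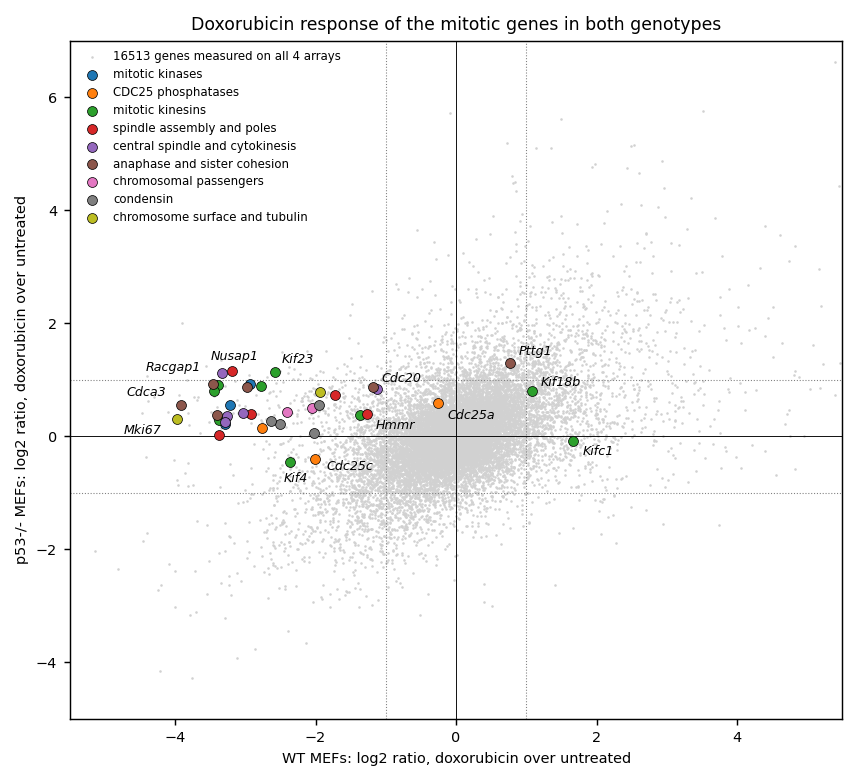
Log2 ratio of doxorubicin over untreated in WT MEFs (x axis) and p53-/- MEFs (y axis) for the 39 members measured on all 4 arrays, colored by role, and for all 16513 such genes (grey), with dotted lines at 2-fold. Most members lie at the left between -1.12 and -3.97 on the x axis and between -0.45 and 1.16 on the y axis, and Kifc1, Kif18b and Pttg1 lie to the right of 0.

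The genotypes already differed without the drug. In untreated MEFs, 27 of 46 members were at least 2-fold higher in p53-/- than in WT and 0 were lower, with a median log2 ratio of 1.08 (2.11-fold). Among all 17287 genes the shares were 2.15% higher and 2.61% lower, the smallest of the 4 comparisons. In doxorubicin-treated MEFs, 37 of 39 members were at least 2-fold higher in p53-/- than in WT, with a median of 4.38 (20.8-fold), against 11.9% higher and 10.3% lower of 17892 genes. These comparisons share arrays, so they are not separate observations.

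The arrays ranked in the same way for most genes. The order doxorubicin-treated WT, untreated WT, untreated p53-/-, doxorubicin-treated p53-/- from lowest to highest held for 41 of the 48 members (85.4%), dim ones included. It held for 8.33% of the 16513 genes measured on all 4 arrays, which include no dim genes. The last step, from untreated to doxorubicin-treated p53-/-, depends on the scaling. With array medians, 33 instead of 42 of the 46 members measured on both p53-/- arrays were higher with doxorubicin. The lowest array was doxorubicin-treated WT for 45 of the 48 members, against 28.6% of the 16513 genes. The highest was doxorubicin-treated p53-/- for 43 members, against 28.2% of those genes. Aurkb and Kif14, not well above background on any array, are among the 45, and Kif14 is among the 43.

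**Figure D3:**
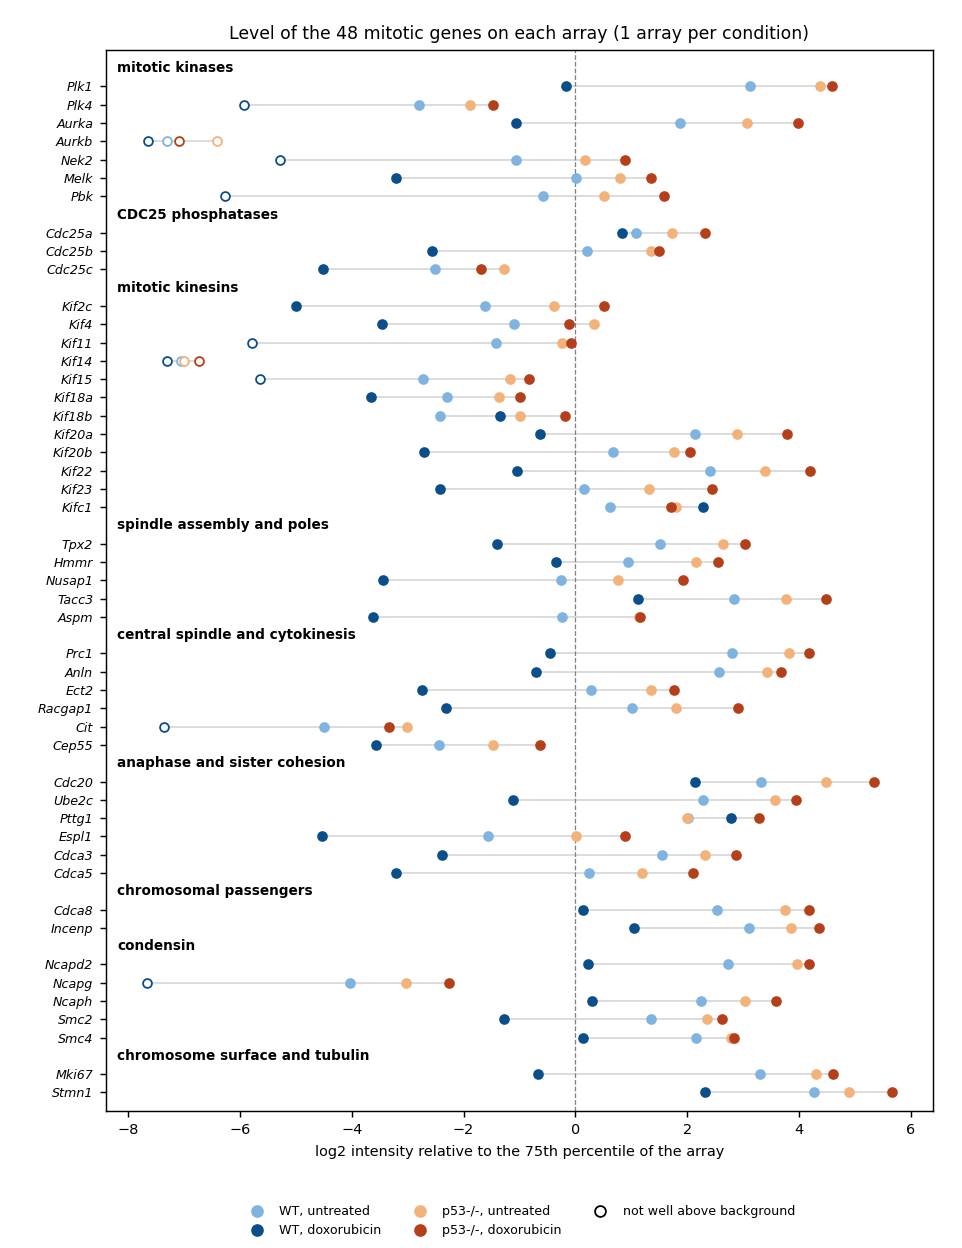
Log2 relative level of each of the 48 genes on each of the 4 arrays, grouped by role, with 1 point per array (hollow where the probe was not well above background). Dark blue points (doxorubicin-treated WT) sit at the left of the row in 45 genes, and dark red points (doxorubicin-treated p53-/-) at the right in 43. Aurkb and Kif14 are hollow on every array. Whether the dark red point lies right of untreated p53-/- depends on the scaling in some genes.

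Among the kinases, Plk1, the polo-like kinase that acts from centrosome maturation to cytokinesis, had relative levels of 8.69, 0.886, 20.7 and 24. It was 9.80-fold lower with doxorubicin in WT and 1.16-fold higher in p53-/- MEFs. Aurka, the aurora kinase of the spindle poles, had levels of 3.68, 0.479, 8.35 and 15.7, 7.68-fold lower in WT and 1.88-fold higher in p53-/-. Melk, a kinase of the AMPK-related family that is abundant in dividing cells, had levels of 1.0, 0.108, 1.74 and 2.55. Its level was 9.31-fold lower in WT. In all 3 genes doxorubicin-treated WT was lowest and doxorubicin-treated p53-/- highest.

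Plk4, Nek2 and Pbk fell below the call for background in doxorubicin-treated WT MEFs only, so their ratios there are bounds. Plk4, which starts centriole duplication, was at least 5.90-fold lower. Nek2, which separates centrosomes, was at least 18.6-fold lower, and Pbk, a kinase of mitotic cells, at least 27.4-fold lower. Against the brightest negative control spot, which is a stricter floor, the bounds were 3.38, 11.3 and 15.7. Pbk had a level of 2.98 in doxorubicin-treated p53-/- MEFs, 2.10-fold above untreated p53-/-. Aurkb, the kinase of the chromosomal passenger complex, was not well above background on any array, so nothing is known of it from this probe.

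The CDC25 phosphatases differed among themselves. Cdc25b had levels of 1.15, 0.169, 2.57 and 2.83 and was 6.81-fold lower with doxorubicin in WT. Cdc25c had levels of 0.176, 0.0439, 0.412 and 0.311 and was 4.01-fold lower, its treated level being next to the brightest negative control of that array. Cdc25a, which also acts at the start of S phase and whose protein is destroyed after DNA damage, had levels of 2.13, 1.79, 3.31 and 5.0. The WT arrays differed by only 1.19-fold for Cdc25a.

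The mitotic kinesins numbered 12, of which 9 were measured on both WT arrays, with 7 at least 2-fold lower, 2 higher and a median log2 ratio of -2.58. Kif22, a chromokinesin that pushes chromosome arms toward the spindle equator, had levels of 5.28, 0.484, 10.5 and 18.3 and was 10.9-fold lower in WT. Kif2c (MCAK), which takes apart microtubules at kinetochores, had levels of 0.328, 0.0313, 0.764 and 1.42. It was 10.5-fold lower in WT and 1.86-fold higher in p53-/-, and the doxorubicin-treated genotypes differed 45.4-fold, the widest gap among the 39 measured members (Pbk and Nek2, dim in doxorubicin-treated WT, had bounds of at least 122-fold and 71.3-fold). Its WT value with doxorubicin is below the brightest negative control of that array (0.0426), so the size of this gap is loosely held.

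Kif20b, Kif20a, Kif4 and Kif18a, which act in abscission, the midzone, chromosome condensation and chromosome alignment, had WT log2 ratios of -3.37, -2.77, -2.36 and -1.37. Kif23, the motor of the centralspindlin complex, had levels of 1.12, 0.187, 2.48 and 5.41. It was 6.0-fold lower in WT and 2.19-fold higher in p53-/- MEFs. Kif11, the motor that drives spindle poles apart, and Kif15, which can take its place, were dim in doxorubicin-treated WT MEFs only, with bounds of at least 15.4-fold and 6.21-fold lower (8.83-fold and 3.56-fold against the brightest negative control). Kif14 was not well above background on any array.

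Kif18b and Kifc1 went the other way. Kif18b, a kinesin of astral microtubule ends, had levels of 0.186, 0.393, 0.506 and 0.876 and was 2.12-fold higher with doxorubicin in WT and 1.73-fold higher in p53-/-. This passed 2-fold with the 75th percentile but not with array medians, quantile normalization or normexp, where its WT log2 ratio was 0.80, 0.99 and 0.91. Untreated WT was its lowest array and its promoter held a CHR match at the start. The probe named Kifc1 in the files had levels of 1.53, 4.85, 3.47 and 3.27, 3.18-fold higher in WT and within 1.06-fold in p53-/-.

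The Kifc1 value is uncertain in its identity. Both probes named Kifc1 carry an accession that the RefSeq table gives to Kifc5b, a near-identical copy, and they lie at chr17:27063180-27063239 and chr17:27069447-27069506 of mm9. The dimmer of these probes gave 1.31 for WT and 0.42 for p53-/- MEFs on the log2 scale. A probe that the files call Gm4137, at chr17:34011931-34011990, belongs to the gene that the table calls Kifc1. Its signals were 72.3 (not well above background), 153, 95.1 and 147. These values near background give no firm ratio for Kifc1, the motor that focuses spindle poles.

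Kinesins outside mitosis were mostly within 2-fold. Of 26 kinesins and kinesin light chains of cargo transport and other roles, 23 were measured. In WT MEFs 3 of 23 were at least 2-fold lower and 2 higher, against 10.4% and 11% of all genes. In p53-/- MEFs 5 of 23 were lower and 0 higher, against 6.89% and 9.24% of all genes. Between doxorubicin-treated genotypes, 6 of 23 were lower in p53-/- than in WT and 2 higher, against 10.3% and 11.9% of all genes. The median log2 ratio with doxorubicin was -0.17 for WT and -0.14 for p53-/- MEFs. Kif21b, a neuronal and immune cell kinesin, was an exception at -4.25 in WT and -2.72 in p53-/- MEFs. Of 13 other NEK, PLK and aurora kinases, 9 were measured in WT, 0 lower and 1 higher, with a median of -0.10, and Nek3 was the gene that was higher (1.83).

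**Figure D4:**
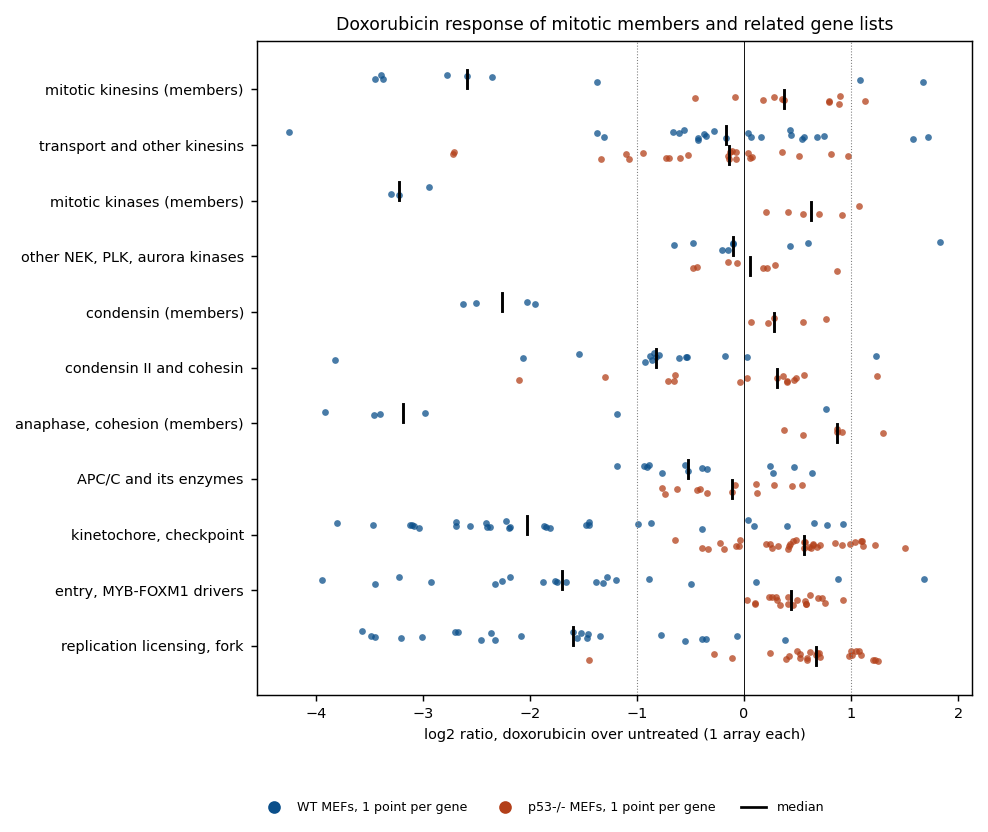
Log2 ratio of doxorubicin over untreated for single genes (points) of the mitotic members and of related lists, in WT (blue) and p53-/- MEFs (red), with the median of each as a black line and dotted lines at 2-fold. In WT MEFs the medians of mitotic kinesins and kinases are -2.58 and -3.22, against -0.17 for transport kinesins and -0.10 for the other kinases of the same families. In this order, 9 of 12, 3 of 7, 23 of 26 and 9 of 13 genes were measured.

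Genes of spindle assembly were lower in all 5 cases. Aspm, which holds microtubule minus ends at the poles and is known from primary microcephaly, had levels of 0.844, 0.0817, 2.19 and 2.22. It was 10.3-fold lower in WT, and its p53-/- arrays differed by 1.01-fold. Nusap1, which bundles microtubules near chromatin, had levels of 0.841, 0.0922, 1.70 and 3.81, 9.12-fold lower in WT and 2.24-fold higher in p53-/-. Tpx2, which activates Aurka, and Tacc3, an Aurka substrate at the spindle, had WT log2 ratios of -2.91 and -1.72. Hmmr, a spindle protein and hyaluronan receptor, moved least, with levels of 1.91, 0.791, 4.49 and 5.88 and a 2.42-fold lower level in WT.

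The central spindle and cytokinesis genes were lower too, in 5 of 5 measured. Racgap1, the partner of Kif23 in centralspindlin, had levels of 2.03, 0.201, 3.48 and 7.52, 10.1-fold lower in WT and 2.16-fold higher in p53-/-. Ect2, the exchange factor for RhoA that centralspindlin recruits, Anln, a scaffold of the contractile ring, and Prc1, which crosslinks midzone microtubules, had WT log2 ratios of -3.04, -3.28 and -3.26. Cep55, which brings the abscission machinery to the midbody, had levels of 0.184, 0.0844, 0.362 and 0.645 and was 2.18-fold lower. Cit, the citron kinase of the midbody, was dim in doxorubicin-treated WT MEFs with a bound of at least 1.81-fold lower (1.04-fold against the brightest negative control), which leaves its change below 2-fold unsettled.

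Of the 6 genes of anaphase and cohesion, 5 were at least 2-fold lower in WT MEFs. Cdca3, a trigger of mitotic entry that acts in protein breakdown, had levels of 2.91, 0.192, 4.98 and 7.30, 15.1-fold lower in WT. Its difference between the responses of the genotypes (WT minus p53-/-, log2) was -4.47, the lowest among the 39 members measured on all 4 arrays. Cdca5 (sororin), which protects cohesion, was spotted 10 times on each array, so its levels of 1.19, 0.108, 2.29 and 4.32 rest on more spots than the others. The SD of its spots was 0.02 to 0.09 on the log2 scale within an array, while its WT log2 ratio was -3.46.

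Ube2c, the ubiquitin enzyme that works with the anaphase promoting complex, and Espl1 (separase), which cuts cohesin, had WT log2 ratios of -3.40 and -2.98. The Espl1 level in doxorubicin-treated WT (0.0431) was next to the brightest negative control of that array (0.0426), so its ratios are loosely held. Cdc20, the activator of the anaphase promoting complex, had levels of 10.02, 4.41, 22.3 and 40.7 and was 2.27-fold lower in WT. Pttg1 (securin), the inhibitor of separase, had levels of 4.04, 6.87, 3.98 and 9.80, 1.70-fold higher in WT and 2.46-fold higher in p53-/-. It was the member whose untreated genotypes were most alike (log2 ratio -0.02). The other Pttg1 probe gave 1.12 in WT and 1.66 in p53-/-, both higher with doxorubicin, but 0.81 between untreated genotypes, from signals of 110 and 175 that are within reach of background.

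The passenger complex targets aurora B to centromeres and the midzone. Cdca8 (borealin) had levels of 5.82, 1.09, 13.4 and 18.1, 5.33-fold lower in WT, and its scaffold Incenp had 8.59, 2.07, 14.6 and 20.6, 4.15-fold lower. In both, doxorubicin-treated WT was the lowest array. The condensin subunits, which compact chromosomes, were lower in 4 of 4 measured. Smc2 had levels of 2.56, 0.414, 5.10 and 6.17, and Ncaph had 4.76, 1.23, 8.17 and 12, which is 6.18-fold and 3.87-fold lower in WT. Ncapd2 and Smc4 lay between them, and Ncapg was dim in doxorubicin-treated WT with a bound of at least 2.51-fold lower, or 1.44-fold against the brightest negative control.

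Mki67, which encodes the proliferation marker that coats mitotic chromosomes, had levels of 9.81, 0.627, 19.7 and 24.3. It was 15.6-fold lower in WT, the largest fold among the 39 measured (the bounds of Pbk and Nek2 are larger), and 1.23-fold higher in p53-/- MEFs. Stmn1 (stathmin), which binds free tubulin, had levels of 19.2, 4.99, 29.6 and 50.9 and was 3.84-fold lower in WT. Of the 12 other stathmins and tubulins, 2 were at least 2-fold lower and 1 higher in WT, and their median was -0.60 (log2).

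The other genes of the pathway were counted from whole lists. In WT MEFs, 15 of 20 mitotic entry genes and drivers were at least 2-fold lower and 1 higher, with a median log2 ratio of -1.70. Fbxo5, an inhibitor of the anaphase promoting complex, had a ratio of -3.94. Cdk1, the kinase of mitotic entry, and Foxm1, the transcription factor of late cell cycle genes, had ratios of -3.22 and -2.19. Gtse1, a microtubule-binding protein of G2 and S phase, was the gene that was higher (1.68).

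Kinetochore and spindle checkpoint genes were lower in 21 of 30 and replication genes in 17 of 23, with medians of -2.03 and -1.60 and 0 higher in both lists. In p53-/- MEFs the medians of the 3 lists were 0.44, 0.56 and 0.68. The subunits of the anaphase promoting complex and its enzymes had a median of -0.53 with 1 of 13 lower, and condensin II with cohesin had -0.82 with 3 of 15 lower and 1 higher. Ncapg2 of condensin II stood apart at -3.82. Other spindle and cytokinesis genes were lower in 13 of 21 and higher in 2, with a median of -1.76, and Shcbp1 and Fam83d marked the ends of the difference between genotypes with WT ratios of -3.83 and 1.69.

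The gap between doxorubicin-treated genotypes is, by arithmetic, the gap between untreated genotypes plus the fall in WT plus the rise in p53-/- MEFs. Over the 37 members with a measured gap of at least 2-fold, the untreated difference had a median share of 23.7%. The fall in WT had 63.8% and the rise in p53-/- 13.5%. Members dim only in doxorubicin-treated WT, Pbk and Nek2 among them, are left out. The division between fall and rise depends on the scaling. With array medians the median of all genes moved to -0.27 in WT and -0.30 in p53-/- MEFs. That raises every fall and lowers every rise, while the median log2 gap of the 39 measured members was 4.31 instead of 4.38. Mki67 had the largest share from WT (75.2%). Kif18b differed from the rest, since its untreated gap was 125% of its treated gap and WT reduced it. In Cdc25c and Kif4 the level in p53-/- MEFs was lower with doxorubicin, by log2 ratios of -0.41 and -0.45.

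**Figure D5:**
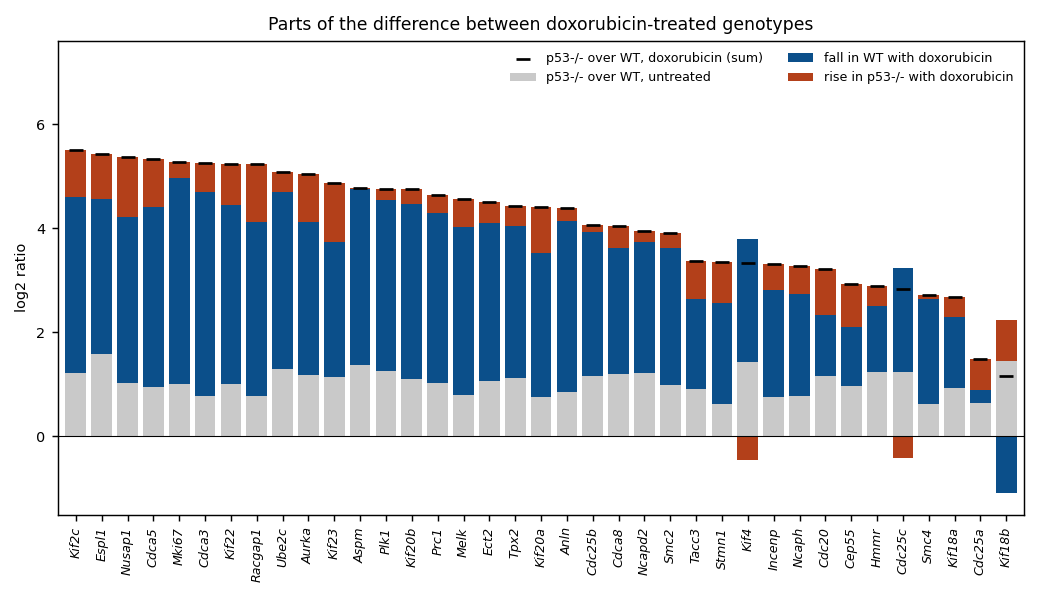
Stacked parts (log2) of the difference between doxorubicin-treated p53-/- and WT MEFs for the 37 members with a gap of at least 2-fold: untreated difference (grey), fall in WT (blue) and rise in p53-/- (red), with the sum as a black line. The blue part is the tallest in most bars, and it lies below 0 for Kif18b. The sizes of the blue and red parts depend on the scaling, and members dim in doxorubicin-treated WT are not shown.

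Including the 7 members that were dim only in doxorubicin-treated WT at their bounds, a step added after the values were seen, 41 of 46 members were at least 2-fold lower in WT MEFs with a median of -2.70. In doxorubicin-treated MEFs 44 of 46 were then higher in p53-/-, with a median of 4.39. The direction of these 7 was fixed by the call that made them dim, so both counts give no separate support. A share over all genes with bounds is not given here. Against the brightest negative control the WT bound of Ncapg was 1.44-fold, which is below 2-fold. Taking the responses together, 35 of 39 members had a difference (WT minus p53-/-) of at least 2-fold downward and 1 upward, with a median of -3.31, against 9.86% downward and 8.37% upward of 16513 genes.

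Some cell type markers also moved with doxorubicin. The 12 fibroblast markers were well above background on all arrays, with summed levels of 584 to 884 that come mostly from collagens, Fn1, Vim and Thy1. Within this list Lum, a matrix proteoglycan, had levels of 9.15, 0.327, 3.63 and 0.714, 28-fold lower with doxorubicin in WT. Pdgfra and Pdgfrb, the receptors for platelet-derived growth factor, were 10.3-fold and 5.43-fold lower in WT, and Ddr2 and Dcn were 3.27-fold and 2.47-fold lower. The rest of this list stayed within 2-fold in WT. Col1a1, Thy1 and Vim had log2 ratios of 0.26, 0.25 and 0.02 there. Fn1, Col1a2, Col3a1 and S100a4 had -0.16, -0.48, -0.73 and -0.90. In p53-/- MEFs the log2 ratios of Lum, Pdgfra and Pdgfrb were -2.34, -0.89 and -1.73, so these 3 were lower with doxorubicin in both genotypes. Ddr2 was lower there too (-1.33), while Dcn was slightly higher (0.30). Between untreated genotypes, S100a4, Lum and Dcn were 4.01-fold, 2.52-fold and 2.21-fold lower in p53-/- than in WT MEFs. The other fibroblast markers differed by less than 2-fold there.

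Of the 7 epithelial markers, 3 to 5 were well above background on an array, with summed levels of 5.38 to 18, mostly from Krt18, and Epcam was dim on all 4. Krt5 was well above background in doxorubicin-treated WT MEFs only (0.523), at least 19.1-fold higher than in untreated WT. Of the 4 erythroid markers, 0 to 2 were well above background, with summed levels of 0.0292 to 0.466, and Hba-a1 was at least 13.5-fold higher in doxorubicin-treated than in untreated WT MEFs. The 9 leukocyte markers summed to 15.1 to 20.5, mostly from Itgam. The 5 endothelial markers summed to 2.54 to 4.49 and the 5 skeletal muscle markers to 0.383 to 0.956, mostly from Kdr and Des, with Cdh5 and Myod1 dim on all arrays. Krt14 of the epithelial list and Vwf of the endothelial list were 2.91-fold and 8.47-fold higher with doxorubicin in WT MEFs. In p53-/- MEFs Krt14 was 2.07-fold higher and Vwf at least 6.97-fold higher. The untreated Vwf levels were within reach of background. The part of these markers in the results was not tested.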

How the data were processed

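The authors reverse-transcribed total RNA, made Cy3-labeled cRNA from it, hybridized this to Agilent 44K mouse arrays and read them with Feature Extraction 10.7.3.1. That program subtracted background from the deposited intensities, removed trends across the array and replaced the values of dim spots with surrogates. No step between arrays had been applied. The deposited flags, used as 0 or 1 scores by Feature Extraction, mark spots well above background, saturated or outlying. The deposited table of all arrays held the same intensities at every spot, within a relative difference of 0.0001.

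Each array had 43020 spots that are not controls, for 39429 probes. Outlier spots (145 to 168 per array) were left out, replicate spots were combined as the mean of log2 intensity, and the array's 75th percentile was subtracted on that scale. Where 1 of 2 arrays was dim, the fold was bounded by the lowest signal well above background on that array. A gene counted when it changed at least 2-fold. There was no test, and the number of arrays limits the precision. Groups came from the labels. The files give probe positions on mm9. Gene names came from a RefSeq table (GRCm38.p6), which named 30180 probes. The other 9249 probes kept their name in the files and are counted among all genes. The name from RefSeq equaled the file's symbol for 47 of the 48 members, Kifc1 being the exception. It came from the accession, save for Kif14, which was matched by its symbol.

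The members and all lists were chosen with earlier results of these data known. All members could be named, with values on every array for those with the largest and smallest WT response in a role, and from each list at most 4 genes, mainly those with the largest and smallest difference between the responses. Kif21b, Nek3, Foxm1 and Cdk1 were named because a count or the pathway turned on them. The 40-base limit for motifs and the windows printed were chosen after the matches were seen.

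The alternatives tried were array medians, quantile normalization, normexp (limma 3.58.1, offset 50), no filter, a filter on all 4 arrays or on the brightest negative control, probe means per gene, the deposited table, and limits of 1.5-fold and 3-fold. The scaling, the choice of probe and the 2-fold count were tested on simulated arrays. These held no dim or outlying spots, so the background filter, the bounds and the removal of outliers were not tested. Python 3.11.15 (numpy 2.4.6, pandas 2.3.3, matplotlib 3.10.9) and R 4.3.3 were used.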

Additional observations from a re-analysis of the deposited data

Results flagged for a closer look

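Kif23, Nusap1 and Racgap1 were at least 2-fold lower in WT and at least 2-fold higher in p53-/- MEFs with doxorubicin. The difference of the log2 ratios (WT minus p53-/-) was -3.71 for Kif23, -4.35 for Nusap1 and -4.45 for Racgap1. It was not tested, since there is 1 array per condition. This was 3 of 39 members (7.69%), against 0.345% of the 16513 genes measured on all 4 arrays. With scaling to array medians, the p53-/- log2 ratios were 0.83, 0.86 and 0.82, below 2-fold.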

How the results depend on the processing

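No count or median of the members, and no single value past 2-fold, changed direction under the alternatives run, although with array medians 33 instead of 42 of the 46 ratios in p53-/- MEFs were above 0. In WT MEFs, the number at least 2-fold higher was 1 instead of 2 with array medians, quantile normalization, normexp, a 3-fold limit or without Kifc1 (added after the data were seen), and the median log2 ratio was -3.04 with array medians and -2.47 with normexp. In p53-/- MEFs, the number higher was 1 with array medians, 19 at 1.5-fold and 0 at 3-fold instead of 5, and the median was 0.17 with array medians. Between untreated genotypes, the number higher was 45 at 1.5-fold and 0 at 3-fold instead of 27. Between doxorubicin-treated genotypes, the median was 4.03 with normexp and 4.22 above the brightest negative control. The median difference of the responses was -2.82 with normexp, -3.11 above the brightest negative control and -3.14 with the mean of probes, and 0 members instead of 1 had a difference upward without Kifc1. The cause was not tested. With array medians the all-gene counts at 2-fold, higher and lower, were 1319 and 2792 in WT (1930 and 1828 with the 75th percentile) and 955 and 2098 in p53-/- MEFs (1567 and 1168). A median or single-gene value counted as moved when it shifted by at least the SD from repeat spots (0.115 for a log2 ratio, 0.163 for a difference of ratios), and array medians shift all ratios of a comparison by 1 constant. Of the single-gene values, 85 moved with array medians, 67 with normexp, 21 with the mean of probes, 20 with quantile normalization and 0 under the 4 other alternatives. Those 4 are the filter choices and the deposited table, which leave a measured ratio as it is, so their 0 was fixed in advance. No paired analysis was possible because each condition has 1 array. Leaving out an array and the slide as a block were not run for that reason and because there was 1 slide. Signal over background limits the ratios of the 9 members that were dim on at least 1 array.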
